A study of Mus musculus with 20 samples.

Results

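The miRNAs described here are mmu-miR-291a-3p, mmu-miR-291b-3p, mmu-miR-294-3p and mmu-miR-295-3p, the 3p arms of 4 hairpins of the miR-290 cluster. They were chosen by name, as 3p arms of these hairpins, and not by their level, and they are 4 of the 1063 miRNAs measured in both cell lines. Small RNA was sequenced while mouse embryonic stem cells were converted to epiblast stem cells (EpiSC), in the female line PGK and the male line E14. The starting cells, at day 0, were embryonic stem cells grown in 2i medium. The later groups were the same lines after transfer to N2B27 medium with Activin A and Fgf2 on fibronectin, sampled after 4 days, after 10 days, between days 19 and 23, and between days 27 and 30 (called late below). The labels name no genetic change in either line. Each of the 10 groups had 2 libraries, numbered replicates 2 and 3 after the experiment named in the labels, and values of a group are given in that order. With a single line of each sex, sex cannot be told apart from line. The day 0 libraries of replicate 3 carry, in both lines, a cell type label that includes EpiSC, although title and day both read day 0, so changes are also given without them. P-values of changes in level rest on the spread between the 2 experiments within a group, estimated over the 10 groups of both lines together. Those of the shares of the 3p arm, given further below, pool the lines and so also include differences between them.

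A miRNA guides Argonaute to its target mRNAs mainly through its seed, a short stretch near its 5′ end, so miRNAs with equal seeds can share targets. The miR-290 cluster is made as a single primary transcript in mouse embryonic stem cells, and its members with this seed are known there for repressing inhibitors of S phase entry such as Cdkn1a, which lets the cells cycle fast. The miR-302 cluster also has arms with this seed and is known as a cluster of the epiblast and of primed stem cells.

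The mature sequences below are those of RefSeq (GRCm38.p6), printed 5′ to 3′ with the seed, bases 2 to 8, in capitals. They are shown because the seed defines which miRNAs can be added into a common dose.
mmu-miR-291a-3p: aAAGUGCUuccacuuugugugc
mmu-miR-294-3p: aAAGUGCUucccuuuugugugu
mmu-miR-295-3p: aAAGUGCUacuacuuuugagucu
mmu-miR-291b-3p: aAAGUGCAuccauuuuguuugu
mmu-miR-302b-3p: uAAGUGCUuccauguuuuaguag
mmu-miR-302d-3p: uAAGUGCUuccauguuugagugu
Bases 2 to 8 were identical in mmu-miR-291a-3p, mmu-miR-294-3p, mmu-miR-295-3p, mmu-miR-302b-3p and mmu-miR-302d-3p. These were the only 5 of the 853 measured miRNAs with a RefSeq mature sequence that carried them. mmu-miR-302c-3p has a RefSeq sequence too, but its bases 2 to 8 read AGUGCUU, so it is not among the 5. mmu-miR-291b-3p did not have the whole miR-302 seed: counted from its 5′ end it differs from mmu-miR-302b-3p inside the seed by U8A, and it shares bases 2 to 7 only. Among the 853, miR-350-5p also shared bases 2 to 7 alone, at a mean of 18.2 CPM. Over their whole length mmu-miR-294-3p was the nearest to each of the other 3 arms, at an edit distance of 3 bases from mmu-miR-291a-3p and mmu-miR-291b-3p and of 5 from mmu-miR-295-3p. How the authors assigned reads that fit more than 1 of these similar arms is not given in the sources used here. No sequence was matched by name for mmu-miR-302a-3p, mmu-miR-290-3p and mmu-miR-292-3p.

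The 4 hairpins lie on the plus strand of chromosome 7 in GRCm38 (GENCODE M21), opposite an exon of Nlrp12, which is on the minus strand. Mir291a occupies positions 3218919 to 3219000, Mir291b 3219482 to 3219560, Mir294 3220641 to 3220724 and Mir295 3220773 to 3220841. The whole cluster holds 7 hairpins within 2216 bases.

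Total counts per library were between 7.11 M and 18.03 M (M for mega), with 864 to 923 miRNAs detected. Across libraries the counts of mmu-miR-295-3p lay between 275790 and 2650662, of mmu-miR-294-3p between 12066 and 195509, of mmu-miR-291a-3p between 7671 and 63579 and of mmu-miR-291b-3p between 527 and 2181, so counting error was small beside the spread of replicates. Of the marker lists, the summed level of mmu-miR-302a-3p, mmu-miR-302b-3p, mmu-miR-302d-3p and mmu-miR-367-3p, which mark the primed epiblast, was 10584 to 24151 CPM in late libraries and 157 to 546 CPM at day 0. The naive stem cell markers consist of arms of the miR-290 cluster, 3 of them described here, and were above 0 in every library.

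Levels are given as CPM, the counts of a miRNA per M counts of its library, after TMM scaling, which corrects for differences in composition between libraries. mmu-miR-295-3p was by far the most abundant of the 4 arms, and all 4 were lower at the later stages. Against day 0, mmu-miR-295-3p, mmu-miR-294-3p and mmu-miR-291a-3p passed the test in both lines at days 19 to 23 and late, and in PGK cells also at day 10. mmu-miR-291b-3p passed it at days 19 to 23 in both lines. None was called higher at any stage, and none passed at day 4. In bulk RNA, fewer cells of a type and less RNA per cell cannot be told apart.

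mmu-miR-295-3p had, in PGK cells, 148235 and 195091 CPM at day 0, 119452 and 111024 CPM at day 4, 71135 and 69248.5 CPM at day 10, 29969.9 and 64113 CPM at days 19 to 23, and 71336 and 68298 CPM late. E14 cells had 150241 and 191070 CPM at day 0, 103710 and 105087 CPM at day 4, 108846 and 88773 CPM at day 10, 51526.5 and 54916 CPM at days 19 to 23, and 70139.8 and 57684.5 CPM late. Every later library of either line was below both day 0 libraries of its line. At day 0 it ranked first or second among all miRNAs of a library, and later between rank 1 and rank 7.

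mmu-miR-294-3p had, in PGK cells, 12909 and 18934 CPM at day 0, 3841 and 8083 CPM at day 4, 3233 and 4009.8 CPM at day 10, 1311 and 3690.2 CPM at days 19 to 23, and 3124 and 4186 CPM late. E14 cells had 5022 and 14093 CPM at day 0, 2995 and 8578 CPM at day 4, 4618 and 4485 CPM at day 10, 2814 and 2388 CPM at days 19 to 23, and 3655 and 2981 CPM late. It was uneven between experiments: the male day 0 libraries differed by a factor of 2.81, and the male day 4 libraries overlapped with day 0. All other groups lay below day 0 of their line.

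mmu-miR-291a-3p had, in PGK cells, 4941 and 6609 CPM at day 0, 4612 and 3444 CPM at day 4, 2552 and 2361 CPM at day 10, 834 and 2119 CPM at days 19 to 23, and 2093 and 2255 CPM late. E14 cells had 4702 and 4583 CPM at day 0, 3761 and 3441 CPM at day 4, 3796 and 2546 CPM at day 10, 1465 and 1335 CPM at days 19 to 23, and 2088 and 1632 CPM late. No later group overlapped with day 0 of its line.

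mmu-miR-291b-3p, the arm with the divergent seed, was also the rarest. It had, in PGK cells, 118 and 203 CPM at day 0, 107 and 100.005 CPM at day 4, 108 and 132 CPM at day 10, 57.3 and 99.7 CPM at days 19 to 23, and 88.0 and 91.9 CPM late. E14 cells had 199.2 and 154 CPM at day 0, 111 and 135 CPM at day 4, 102 and 97.3 CPM at day 10, 95.02 and 72.1 CPM at days 19 to 23, and 120.1 and 98.1 CPM late. Female day 10 overlapped with day 0, and the other later groups lay below it. The order of the arms was thus mmu-miR-295-3p, mmu-miR-294-3p, mmu-miR-291a-3p and mmu-miR-291b-3p, except that mmu-miR-294-3p was below mmu-miR-291a-3p in replicate 2 at day 4 of both lines. The groups of mmu-miR-294-3p and mmu-miR-291a-3p overlapped at day 4 in both lines and at days 19 to 23 in PGK cells. Levels of different arms also depend on how well each was captured in the library, which was not tested.

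**Figure D1:**
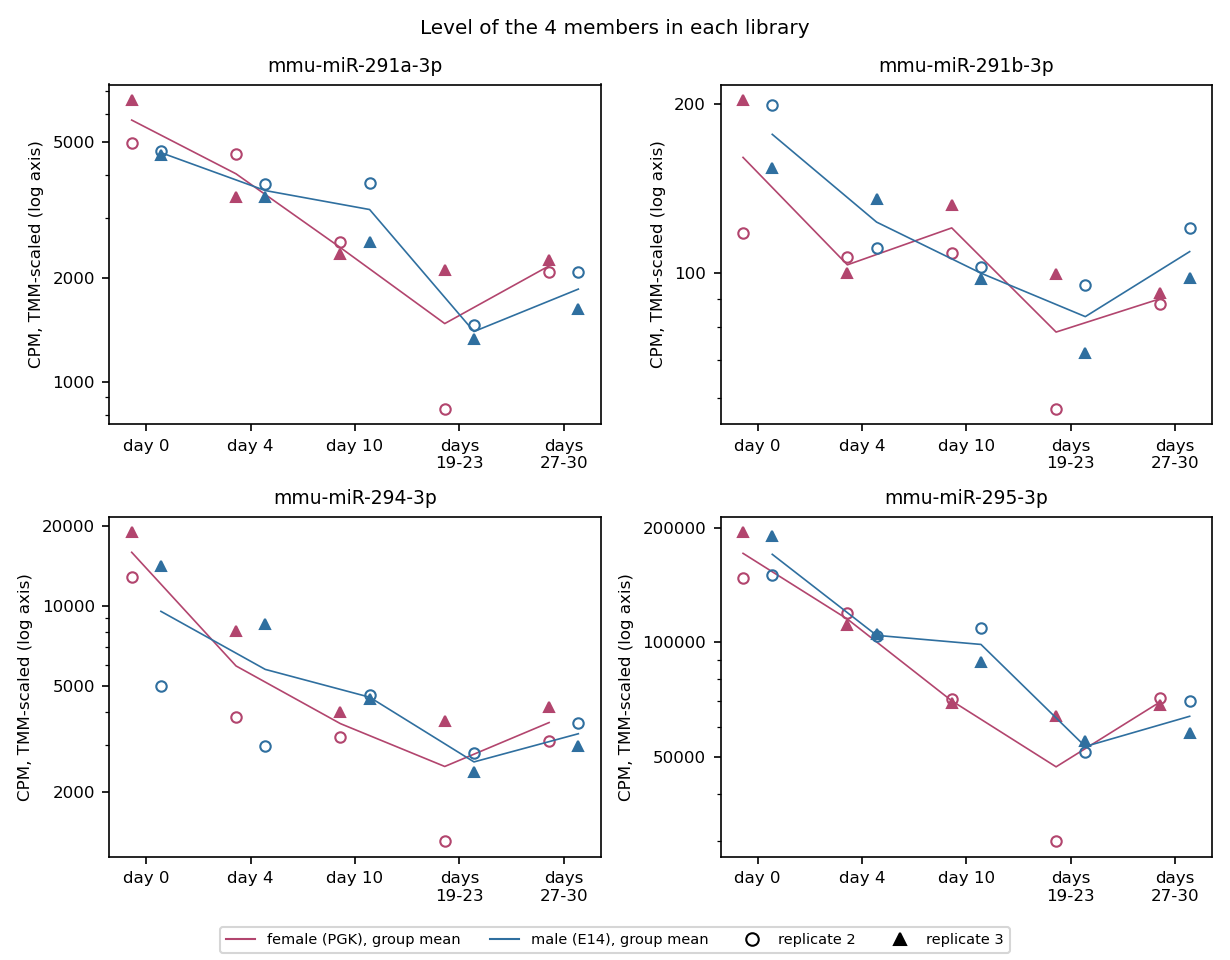
Level of each arm in each of the 20 libraries, as TMM-scaled CPM on a log axis, by stage, with the female line in magenta and the male line in blue; open circles are replicate 2, filled triangles replicate 3, and lines join group means. Every arm was lower late than at day 0 in both lines, and the widest ratio between replicates at day 0 was that of mmu-miR-294-3p in E14 cells, at 5022 and 14093 CPM.

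In the late groups mmu-miR-295-3p averaged 69817 ± 2148 CPM in PGK cells, against 171663 ± 33132 CPM at day 0 (SD, n = 2 each). The log2 change was -1.30 ± 0.30 (SE; adjusted p = 0.00269, edgeR quasi-likelihood test), or 0.407 of the day 0 level. E14 cells averaged 63912 ± 8807 CPM late, against 170655 ± 28870.2 CPM at day 0, a log2 change of -1.42 ± 0.30 (adjusted p = 0.00225) and 0.375 of the day 0 level. These calls were kept when any 1 library was left out, with an adjusted p of at most 0.0206 in PGK and 0.0308 in E14 cells. Without the day 0 library of replicate 3 the log2 changes were -1.21 in PGK and -1.33 in E14 cells.

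mmu-miR-294-3p had a log2 change late against day 0 of -2.12 ± 0.59 in PGK cells (adjusted p = 0.00944) and of -1.53 ± 0.58 in E14 cells (adjusted p = 0.0476). Without the day 0 library of replicate 3 these were -1.94 (adjusted p = 0.0527) in PGK and -0.70 (adjusted p = 0.425) in E14 cells and the call was lost in both lines. It was also lost without late replicate 2 in PGK cells (adjusted p = 0.0932) and without either late library in E14 cells (adjusted p = 0.112 and 0.198). mmu-miR-291a-3p had a log2 change late of -1.41 ± 0.38 in PGK cells (adjusted p = 0.00804) and of -1.32 ± 0.38 in E14 cells (adjusted p = 0.0139). Both of these held without the day 0 library of replicate 3. They were lost without late replicate 2 in PGK cells (adjusted p = 0.052) and without late replicate 3 in E14 cells (adjusted p = 0.106), where the count of called arms fell to 1 of 4. mmu-miR-291b-3p had a log2 change late of -0.84 ± 0.37 in PGK cells (adjusted p = 0.0789) and of -0.69 ± 0.37 in E14 cells (adjusted p = 0.144), with 95% intervals of -1.66 to -0.01 in PGK and -1.51 to 0.13 in E14 cells, and neither passed. DESeq2 called the PGK change (adjusted p = 0.0236).

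At days 19 to 23 all 4 arms passed the test in both lines. The log2 changes against day 0 in PGK cells were -1.87 ± 0.30 for mmu-miR-295-3p (adjusted p = 0.000191), -2.67 ± 0.61 for mmu-miR-294-3p (adjusted p = 0.00246), -1.97 ± 0.39 for mmu-miR-291a-3p (adjusted p = 0.000885) and -1.03 ± 0.37 for mmu-miR-291b-3p (adjusted p = 0.0363). Those of E14 cells were -1.68 ± 0.30 for mmu-miR-295-3p (adjusted p = 0.000711), -1.88 ± 0.59 for mmu-miR-294-3p (adjusted p = 0.0229), -1.73 ± 0.39 for mmu-miR-291a-3p (adjusted p = 0.00313) and -1.08 ± 0.37 for mmu-miR-291b-3p (adjusted p = 0.0353). Female replicate 2 of this stage was the lowest library for each of the 4 arms. Without it the PGK call of mmu-miR-291b-3p was lost (adjusted p = 0.225), as it was without PGK day 0 replicate 3 (adjusted p = 0.214). In E14 cells the mmu-miR-291b-3p call was lost without day 0 replicate 2 or either library of days 19 to 23, and the mmu-miR-294-3p call without day 0 replicate 3 or either library of days 19 to 23, with adjusted p-values of 0.0572 to 0.235. Without either of these E14 libraries of days 19 to 23 the count was 2 of 4.

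At day 10 the female line had log2 changes of -1.29 ± 0.30 for mmu-miR-295-3p (adjusted p = 0.00315), -2.14 ± 0.59 for mmu-miR-294-3p (adjusted p = 0.0103) and -1.23 ± 0.38 for mmu-miR-291a-3p (adjusted p = 0.0184). Female mmu-miR-291b-3p, at -0.42 ± 0.37, did not pass (adjusted p = 0.38). In E14 cells mmu-miR-295-3p was at -0.79 ± 0.30 (adjusted p = 0.0523), with a 95% interval of -1.45 to -0.13, and with the experiment as a block its adjusted p was 0.0379. The other 3 male arms did not pass at day 10, and their 95% intervals were -2.35 to 0.21 for mmu-miR-294-3p, -1.39 to 0.29 for mmu-miR-291a-3p and -1.64 to 0.00 for mmu-miR-291b-3p. The count at day 10 fell to 1 of 4 in PGK cells without day 0 replicate 3 or day 10 replicate 2, with mmu-miR-295-3p remaining, and mmu-miR-291a-3p was also lost without day 10 replicate 3 (adjusted p = 0.0647). In E14 cells mmu-miR-295-3p passed without day 0 replicate 2 (adjusted p = 0.0421).

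At day 4 the log2 changes lay between -1.42 and -0.52 in PGK cells and between -0.72 and -0.37 in E14 cells. The 95% intervals of PGK cells were -1.23 to 0.08 for mmu-miR-295-3p, -2.71 to -0.12 for mmu-miR-294-3p, -1.36 to 0.32 for mmu-miR-291a-3p and -1.45 to 0.18 for mmu-miR-291b-3p. Those of E14 cells were -1.37 to -0.05 for mmu-miR-295-3p, -2.00 to 0.55 for mmu-miR-294-3p, -1.20 to 0.47 for mmu-miR-291a-3p and -1.34 to 0.30 for mmu-miR-291b-3p. With the experiment as a block, mmu-miR-294-3p passed in PGK cells (log2 change -1.47, adjusted p = 0.0164) and mmu-miR-295-3p in E14 cells (log2 change -0.70, adjusted p = 0.0477), each the only arm to do so. Leaving out 1 library also gave calls at day 4, of mmu-miR-291b-3p in PGK cells without day 0 replicate 2, of mmu-miR-295-3p in E14 cells without day 0 replicate 2 or day 4 replicate 3, and of mmu-miR-294-3p in E14 cells without day 4 replicate 3. Whether a decline is called at day 4 therefore depends on the fit.

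Counted over stages, edgeR called 0, 3, 4 and 3 of the 4 arms lower in PGK cells at day 4, day 10, days 19 to 23 and late, and 0, 0, 4 and 3 in E14 cells. At an unadjusted p under 0.05 the counts were 1, 3, 4 and 4 in PGK and 1, 2, 4 and 3 in E14 cells. Among all 813 tested miRNAs, 400, 390, 407 and 416 reached this unadjusted level in either direction in PGK cells. In E14 cells these were 416, 356, 358 and 406. DESeq2 gave 1, 3, 4 and 4 of the arms in PGK and 1, 0, 4 and 3 in E14 cells. Per stage and line it called 299 to 372 of all tested miRNAs in either direction. By adjusted edgeR calls, 14.6%, 18.8%, 19.3% and 19.4% of all tested miRNAs were lower in PGK cells at these stages. In E14 cells these shares were 18.3%, 17%, 18.5% and 21.2%. The median log2 change late was -1.35 over the 4 arms in PGK cells and -1.37 in E14 cells, beside 0.01 and 0.05 over all tested miRNAs. With all later libraries below both day 0 libraries there were 4, 3, 4 and 4 of the 4 arms at the successive stages in PGK cells and 3, 4, 4 and 4 in E14 cells. By the same measure 30.6%, 33.3%, 30.9% and 32.8% of all tested miRNAs lay below day 0 in PGK cells, and 28.4%, 32.1%, 31% and 33.3% in E14 cells.

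**Figure D2:**
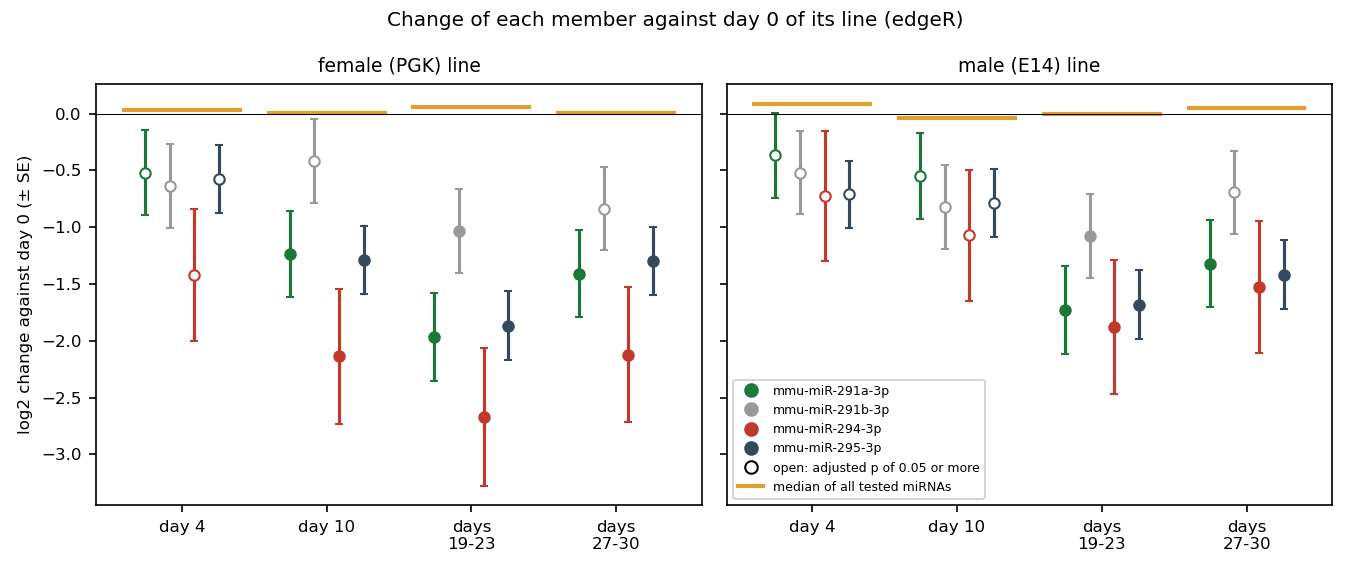
Log2 change against day 0 (points) with its SE (bars) for each arm, stage and line, where filled points have an adjusted p under 0.05 and the orange line is the median over all tested miRNAs. All points lie below 0, with no filled point at day 4 and with 4 of 4 filled at days 19 to 23 in both lines.

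Within each experiment the picture was alike: in all 16 pairs of a later library with the day 0 library of its line and experiment, each of the 4 arms was lower at the later stage. The log2 ratios of these pairs lay between -2.31 and -0.31 for mmu-miR-295-3p, between -3.30 and -0.12 for mmu-miR-294-3p, between -2.57 and -0.10 for mmu-miR-291a-3p and between -1.14 and -0.12 for mmu-miR-291b-3p. The stages were all set against the same day 0 libraries, so these pairs are not independent. How many of all tested miRNAs were lower in all 16 pairs was not counted, so how unusual this is stays unknown. The size of the changes depended on the scaling. With library totals alone, the median of all miRNAs late against day 0 moved to 0.42 in PGK and 0.71 in E14 cells, and the change of mmu-miR-295-3p late in E14 cells was -0.77 (adjusted p = 0.0642). Taken relative to that median it was -1.47 under both scalings.

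Between neighbouring stages 0 of 24 tests of the 4 arms passed in edgeR, with 3 at an unadjusted p under 0.05 and 0 in DESeq2. The 3 were mmu-miR-295-3p at day 10 against day 4 in PGK cells (log2 change -0.72, adjusted p = 0.161), and mmu-miR-291a-3p (-1.18, adjusted p = 0.235) and mmu-miR-295-3p (-0.89, adjusted p = 0.256) at days 19 to 23 against day 10 in E14 cells. Late against days 19 to 23, all 4 arms had positive log2 differences, at 0.57 for mmu-miR-295-3p, 0.55 for mmu-miR-294-3p, 0.56 for mmu-miR-291a-3p and 0.20 for mmu-miR-291b-3p in PGK cells, with an adjusted p of 1 each. In E14 cells these were 0.26, 0.35, 0.41 and 0.38, again with an adjusted p of 1. Among all tested miRNAs, 6.52%, 0.369% and 0% were called in either direction over the 3 steps in PGK cells, and 8.12%, 0.246% and 0% in E14 cells. For the last step 22 miRNAs in PGK and 37 in E14 cells had an unadjusted p under 0.05, and DESeq2 called 0 and 3.

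The female and male lines were compared at each stage. None of the 20 tests of the 4 arms passed, with 0 at an unadjusted p under 0.05 in edgeR and 0 called by DESeq2. Late, mmu-miR-295-3p had a female over male log2 difference of 0.13, with a 95% interval of -0.53 to 0.79. The widest gap of its group means was at day 10, where it averaged 70191.7 ± 1334 CPM in PGK cells, against 98809.8 ± 14194 CPM in E14 cells (SD, n = 2 each; log2 difference -0.49 ± 0.30, adjusted p = 0.536, 95% interval -1.15 to 0.17). Of all tested miRNAs, 8.73% were called between the lines at day 0, 5.04% at day 4 and 0% at each of the other 3 stages. At those stages 97, 60 and 63 miRNAs had an unadjusted p under 0.05, and DESeq2 called 25, 2 and 1.

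The change against day 0 was also compared between the lines, as the female minus the male log2 change. None of the 16 tests of the 4 arms passed, with 0 at an unadjusted p under 0.05 and 0 in DESeq2. At day 10, where 3 arms passed in PGK cells and 0 in E14 cells, the difference was -0.50 ± 0.42 for mmu-miR-295-3p (adjusted p = 0.675) and -1.07 ± 0.81 for mmu-miR-294-3p (adjusted p = 0.651, 95% interval -2.87 to 0.73). Late it was 0.12 ± 0.42 for mmu-miR-295-3p (adjusted p = 0.952, 95% interval -0.81 to 1.05). Of all tested miRNAs, 0% were called at each of the first 3 later stages (118, 98 and 94 at an unadjusted p under 0.05, 16, 19 and 33 in DESeq2) and 0.369% late.

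The 4 arms were then added into a summed level, read as the dose of the seed family. Per library it was 166203 and 220837 CPM at day 0 in PGK cells, 128012 and 122650 CPM at day 4, 77028.5 and 75751.5 CPM at day 10, 32172 and 70022 CPM at days 19 to 23, and 76641 and 74832 CPM late. E14 libraries held 160164 and 209899 CPM at day 0, 110576 and 117242 CPM at day 4, 117363 and 95901 CPM at day 10, 55900.4 and 58712 CPM at days 19 to 23, and 76003.5 and 62396 CPM late. No later library reached the day 0 libraries of its line.

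Relative to the day 0 mean, the summed level of PGK cells stood at 64.8% by day 4, 39.5% by day 10, 26.4% in the days 19 to 23 group and 39.1% late. In E14 cells it was 61.6%, 57.6%, 31.0% and 37.4% at these stages. No test was made of the sum. Without the day 0 library of replicate 3 the log2 ratio late was -1.13 in PGK cells, against -1.35 with it, and -1.21 in E14 cells, against -1.42 with it. The female value at days 19 to 23 rests on libraries that differed by more than a factor of 2, and leaving out 1 library at a time moved its log2 ratio between -2.59 and -1.47.

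As a share of all miRNA counts, with no scaling, the 4 arms held 8.50% ± 0.607 late in PGK cells, against 16.3% ± 3.43 at day 0, and 9.28% ± 1.27 late in E14 cells, against 15.8% ± 4.02 at day 0 (SD, n = 2 each). The log2 ratio of these shares was -0.94 in PGK and -0.77 in E14 cells, smaller than after TMM scaling. Within the dose, mmu-miR-295-3p made up 88.8% ± 0.599 at day 0 and 91.9% to 92.4% at later stages in PGK cells, and 91.7% to 92.9% in E14 cells. The dose is therefore mostly the level of mmu-miR-295-3p. mmu-miR-294-3p made up 3.0% to 6.59% in single later libraries of PGK cells, against 7.77% and 8.57% at day 0, and 2.71% to 7.32% in later libraries of E14 cells, against 3.14% and 6.71% at day 0. Both ends of each later range come from the day 4 libraries, and E14 libraries at day 0 were also far apart. A mean of this share in these groups therefore averages 2 libraries that differ widely. mmu-miR-291a-3p made up 2.45% to 3.22% and mmu-miR-291b-3p 0.0815% to 0.160%, so leaving out the arm with the divergent seed hardly moves the sum.

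mmu-miR-302b-3p and mmu-miR-302d-3p were added next, since their seed is the same. Together they had, in PGK cells, 121 ± 14.3 CPM at day 0, 13421 ± 241 CPM at day 4, 16194 ± 3972 CPM at day 10, 8766 ± 380 CPM at days 19 to 23 and 9099 ± 2634 CPM late (SD, n = 2 each). E14 cells had 301.9 ± 166 CPM at day 0, 9803 ± 6038 CPM at day 4, 37124 ± 18447 CPM at day 10, 16316 ± 5995 CPM at days 19 to 23 and 12727 ± 3759 CPM late. Against day 0 this pair was thus higher where the miR-290 arms were lower, while both means were lower at days 19 to 23 than at day 10 in both lines. The miR-302 pair stayed below the dose of the miR-290 arms in the mean of every group. Its share of the total carrying bases 2 to 8 in PGK cells was 17.4% ± 3.37 at day 10, 16.2% ± 6.70 at days 19 to 23 and 10.7% ± 2.61 late. E14 cells had a share of 25.0% ± 6.98 at day 10, 22.0% ± 6.96 at days 19 to 23 and 15.4% ± 2.08 late, so day 10 and days 19 to 23 differed by less than their SD in each line.

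The total over mmu-miR-291a-3p, mmu-miR-294-3p, mmu-miR-295-3p, mmu-miR-302b-3p and mmu-miR-302d-3p was lower than at day 0 by less than the miR-290 arms alone. In PGK cells it was 71.7% of day 0 by day 4, 47.8% by day 10, 30.9% by days 19 to 23 and 43.8% late, and in E14 cells 66.7%, 77.6%, 39.7% and 44.2%. At male day 10 the libraries, at 167428 and 119884 CPM, overlapped with male day 0, at 160149 and 210165 CPM. mmu-miR-302a-3p is not in this total, since its sequence was not matched and its seed not checked. With it added, the total in PGK cells was 74.4%, 51.8%, 33.0% and 45.9% of day 0 at these stages. In E14 cells it was then 68.7%, 86.3%, 44.3% and 47.9%. The miR-302 share at day 10 was then 23.8% ± 3.83 in PGK and 32.6% ± 6.62 in E14 cells (SD, n = 2 each). Leaving it out thus gives lower values for the miR-302 part.

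**Figure D3:**
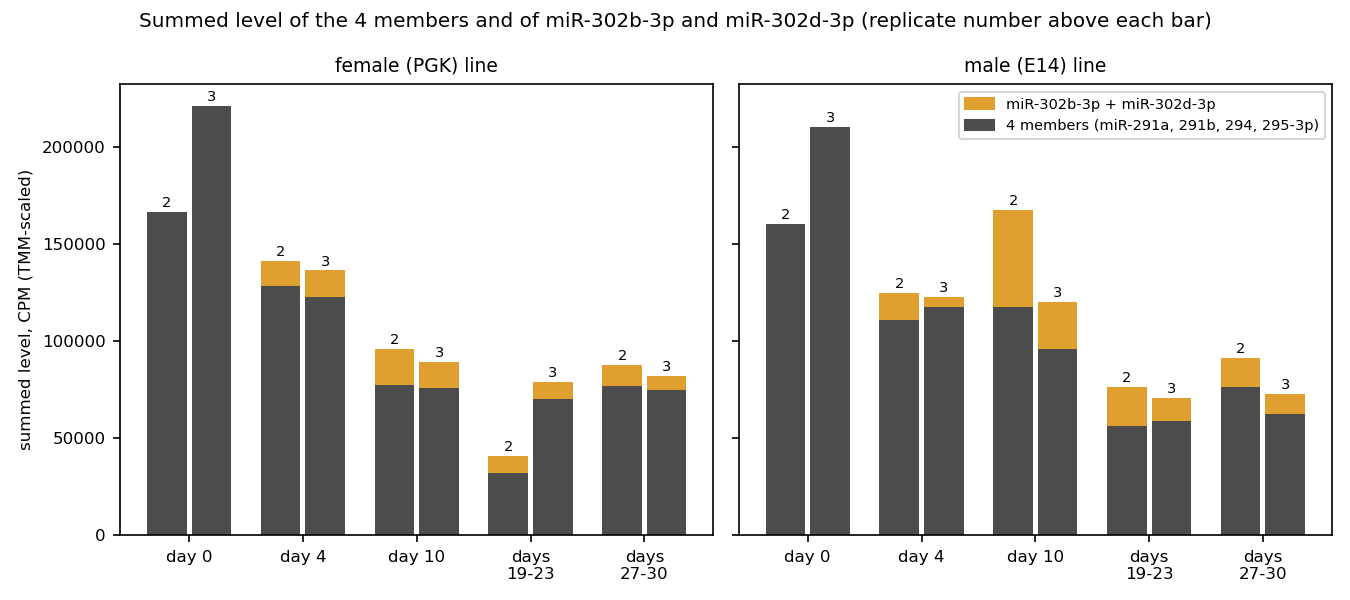
Summed level in each library as TMM-scaled CPM, with the 4 miR-290 arms in grey and mmu-miR-302b-3p plus mmu-miR-302d-3p stacked in orange, by stage and line, and the replicate number above each bar. The grey bars are below those of day 0 in every later library, and the orange part is largest at male day 10, with a mean of 37124 CPM.

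The other 10 arms of the cluster come from the same primary transcript. edgeR called 0, 7, 9 and 8 of them lower at the 4 later stages of PGK cells and 1, 0, 8 and 8 in E14 cells, with none higher. Between 14.6% and 21.2% of all tested miRNAs were called lower over these stages and lines. The count of 0 in PGK cells was at day 4, with 3 arms at an unadjusted p under 0.05 and 2 called by DESeq2, and the count of 0 in E14 cells was at day 10, with 3 arms unadjusted and 1 by DESeq2. Their median log2 change late was -1.43 in PGK and -1.45 in E14 cells. mmu-miR-292-5p, the most abundant of them, fell late, with log2 changes of -1.81 in PGK and -1.82 in E14 cells (adjusted p = 0.00201 and 0.0028), and so did mmu-miR-291a-5p, the partner arm of mmu-miR-291a-3p, with -1.93 and -1.41. The summed 4 arms held 64.0% to 68.6% of all counts of the cluster in the group means.

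All 10 measured arms of the miR-302 and miR-367 cluster rose at day 4 and late in both lines. Of all tested miRNAs 24.5% were called higher at day 4 and 24.1% late in PGK cells, and 25.1% and 19.6% in E14 cells. The median log2 change of the cluster late was 6.52 in PGK cells, or 6.41 with mmu-miR-302b-5p, which had 0 counts at day 0, set to its bound of 3 counts over the group, and 6.05 in E14 cells. mmu-miR-302d-3p, the most abundant, rose late by 6.16 ± 0.66 in PGK and 5.34 ± 0.64 in E14 cells on the log2 scale (adjusted p = 6.91e-06 and 2.04e-05).

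The miR-17 family holds the bases AAGUGC of the seed 1 position further from the 5′ end, as mmu-miR-17-5p and mmu-miR-93-5p show, with bases 2 to 8 in capitals.
mmu-miR-17-5p: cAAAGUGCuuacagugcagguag
mmu-miR-93-5p: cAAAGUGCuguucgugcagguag
These miRNAs are known as promoters of proliferation. Of the 6 measured, 2 were called higher and 1 lower late in PGK cells, and 0 higher and 1 lower in E14 cells. Over all tested miRNAs, 24.1% were called higher and 19.4% lower late in PGK cells, and 19.6% and 21.2% in E14 cells. The 6 had median log2 changes of 0.58 and -0.20. mmu-miR-93-5p, the most abundant, fell late, with log2 changes of -1.68 in PGK and -2.48 in E14 cells (adjusted p = 0.00125 and 9.88e-05). mmu-miR-17-5p had log2 changes of 0.59 and 0.33 and did not pass.

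The let-7 guide arms are known to oppose the miR-290 family in embryonic stem cells and to favour differentiation. Of 11 measured, 10 were tested, and 9 fell late in PGK and 7 in E14 cells, beside 19.4% and 21.2% of all tested miRNAs. The guides had median log2 changes of -4.27 and -3.88. Their summed level late was 2598 ± 285 CPM in PGK cells, against 45224 ± 5409.7 CPM at day 0, and 1947 ± 743 CPM late in E14 cells, against 20283 ± 1506 CPM at day 0 (SD, n = 2 each). Both the dose and let-7 were lower late, and the ratio of the dose to let-7 was 29.4 ± 3.71 late in PGK cells, against 4.26 ± 0.345 at day 0, and 39.3 ± 20.0 late in E14 cells, against 9.21 ± 2.42 at day 0. mmu-let-7f-5p, the most abundant guide, fell late, with log2 changes of -4.97 in PGK and -3.85 in E14 cells (adjusted p = 9.99e-07 and 4.46e-06).

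The last list holds 8 miRNAs of the miR-15 and miR-34 families, known for restraining the cell cycle. Late, 2 were called higher and 2 lower in PGK cells, and 2 higher and 3 lower in E14 cells, with median log2 changes of 0.21 and -0.63. Among all tested miRNAs, 24.1% were called higher and 19.4% lower late in PGK cells, and 19.6% and 21.2% in E14 cells. mmu-miR-34c-5p rose by 3.55 ± 0.58 in PGK and 3.46 ± 0.58 in E14 cells on the log2 scale (adjusted p = 0.00019 and 0.000368). mmu-miR-16-5p was lower late, at log2 changes of -1.27 in PGK and -1.23 in E14 cells (adjusted p = 0.00193 and 0.00324).

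The ratio of the arms of a hairpin does not depend on the scaling of libraries. Below are the hairpins of RefSeq, shown because both arms were counted, with the 5p and 3p arms in capitals.
Mir291b: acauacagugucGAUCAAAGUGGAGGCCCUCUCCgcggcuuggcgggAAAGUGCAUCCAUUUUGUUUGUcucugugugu
Mir294: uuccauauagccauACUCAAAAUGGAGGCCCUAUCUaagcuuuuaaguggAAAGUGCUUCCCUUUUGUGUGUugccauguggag
Mir295: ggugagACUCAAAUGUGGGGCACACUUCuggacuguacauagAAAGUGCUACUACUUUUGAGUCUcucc
The 3p arm dominated in miR-295, at 99.2% to 99.6% of both arms over the 20 libraries, and in miR-294, at 94.3% to 98.1%. In miR-291b it held 60.2% to 78.1%. miR-291a was the exception, with 19.1% to 32.5%: there the arm with the miR-302 seed was the rarer one, below mmu-miR-291a-5p in every library.

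Late against day 0, the 3p share of miR-291a was 25.9% ± 1.78, against 22.8% ± 5.24 (SD, n = 4 each; p = 0.343, exact two-sided permutation test over libraries, adjusted over the 4 hairpins 0.4). That of miR-291b was 71.4% ± 3.72 late, against 67.3% ± 6.59 at day 0 (exact p = 0.4, adjusted 0.4). That of miR-294 was 96.3% ± 0.497 late, against 97.2% ± 0.811 at day 0 (exact p = 0.114, adjusted 0.229). That of miR-295 was 99.4% ± 0.0887 late, against 99.5% ± 0.0964 at day 0 (exact p = 0.0857, adjusted 0.229). None passed, where the smallest p that 4 against 4 can give is 0.0286, and the groups pool both lines. After adjustment over the 4 hairpins, a hairpin with that p alone could not pass. The test therefore does not show that the shares stayed the same. In PGK cells alone, the share of miR-291a was 27.3% ± 0.109 late, against 20.7% ± 0.408 at day 0 (SD, n = 2 each), while the male day 0 libraries, at 19.1% and 30.5%, lay on both sides of the male late ones.

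**Figure D4:**
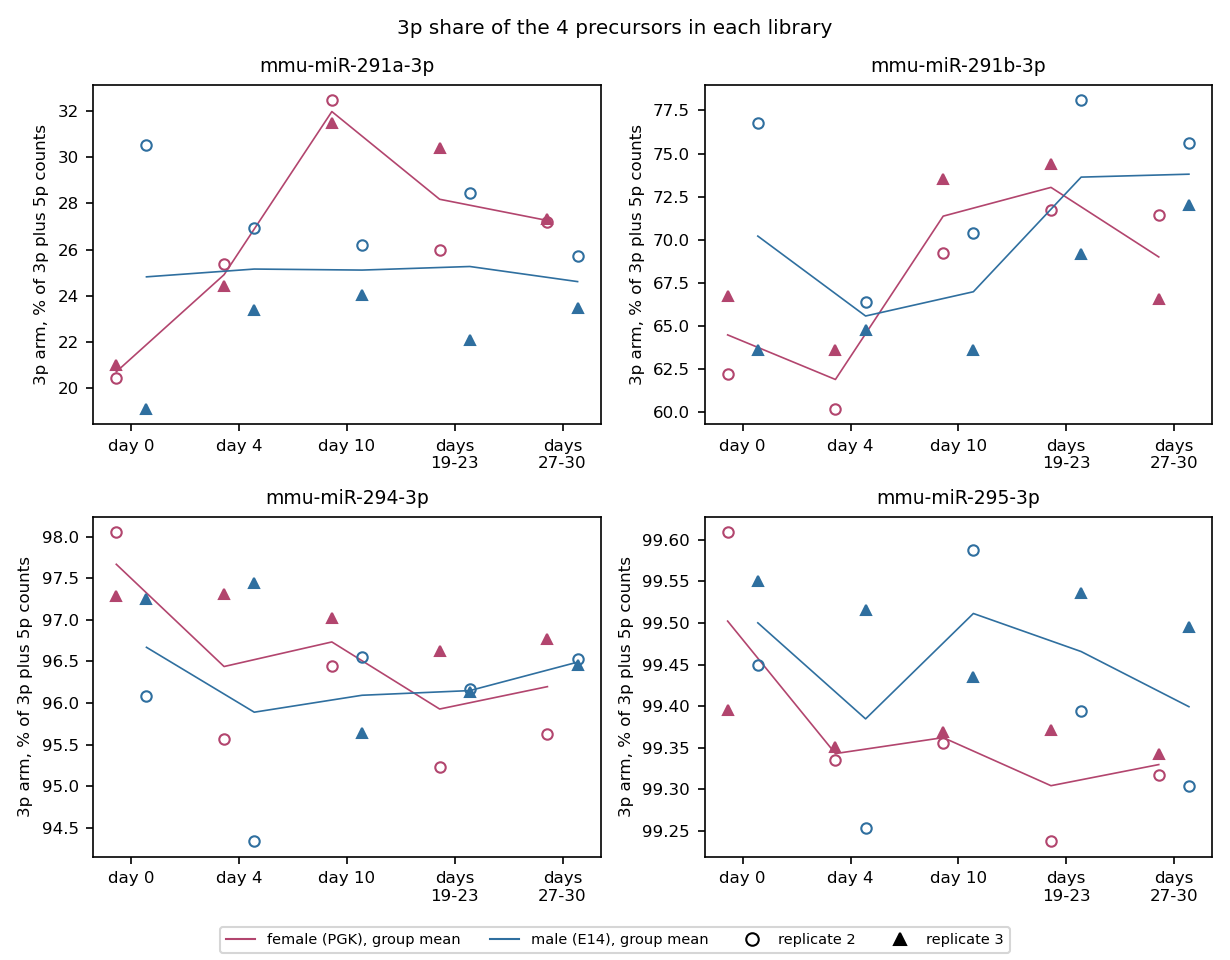
Share of the 3p arm in the counts of both arms, in percent, for the 4 hairpins in each of the 20 libraries by stage, with the female line in magenta and the male line in blue. miR-295 and miR-294 stay near the top in all libraries, and miR-291a stays between 19.1% and 32.5%.

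Across the 20 libraries, the miRNAs whose log2 level followed that of the summed dose most closely were arms of the same cluster. Among 332 miRNAs with a mean of at least 50 CPM, Pearson's r with the dose was 0.9995 for mmu-miR-295-3p, which makes up most of it, 0.982 for mmu-miR-292-5p, 0.976 for mmu-miR-291a-5p and 0.972 for mmu-miR-291a-3p. It was 0.890 for mmu-miR-294-3p and 0.816 for mmu-miR-291b-3p, and 9 of the other 10 arms of the cluster were among the first 20. Libraries share lines, stages and scaling, so r is a description of these 20 libraries.

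Outside the cluster the closest were mmu-miR-672-5p (r = 0.852), mmu-miR-211-5p (0.844), mmu-miR-3096b-5p (0.824), mmu-miR-27b-3p (0.806) and mmu-miR-3096a-5p (0.804). mmu-miR-211-5p averaged 0.297 ± 0.0950 CPM late in PGK cells, against 1823 ± 488 CPM at day 0, and 0.301 ± 0.312 CPM late in E14 cells, against 2318 ± 626 CPM at day 0 (SD, n = 2 each). It was thus nearly absent at the late stage, where the dose kept 39.1% and 37.4% of its day 0 level. The miRNAs with the most opposite course were mmu-miR-674-3p (r = -0.896), mmu-miR-125a-5p (-0.868) and mmu-miR-375-3p (-0.867). mmu-miR-125a-5p averaged 8085 ± 759 CPM late in PGK cells, against 2253 ± 411 CPM at day 0, and 7737 ± 70.1 CPM late in E14 cells, against 1610.4 ± 207 CPM at day 0.

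Marker miRNAs of other cell types differed between stages too. The summed level of 6 fibroblast and mesenchyme markers was 5751 to 11084 CPM at day 0, 11085 to 18791 CPM at day 4, 15052 to 46137 CPM at day 10, 5534 to 17141 CPM at days 19 to 23 and 8845 to 16960 CPM late. This sum was above the day 0 range at day 10, and overlapped with it at days 19 to 23 and late. At day 4 its lowest library, at 11085 CPM, was barely above the highest of day 0, at 11084 CPM. Of these markers, mmu-miR-214-3p was at 0 in all libraries of day 0 and day 4. The 3 neural markers summed to 717 to 892 CPM at day 0, 1371 to 2546 CPM at day 4, 702 to 1278 CPM at day 10, 564 to 811 CPM at days 19 to 23 and 801 to 1573 CPM late. The 3 endoderm markers summed to 1157 to 3623 CPM at day 0 and to between 313 and 972 CPM at the later stages, with mmu-miR-122-5p at 0 at day 4. The 5 blood markers summed to 80.2 to 682 CPM at day 0, 65.4 to 226 CPM at day 4 and at most 21.3 CPM afterwards, and the 3 muscle markers to 3.65 to 15.1 CPM at day 0 and 34.6 to 118.5 CPM at the later stages. Their part in the decline of the 4 arms was not tested.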

How the data were processed

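The authors' deposited raw tables, 1 per line, give counts of mature miRNAs in each library. Per the labels, libraries were made by Illumina's instructions from total RNA extracted with Trizol and treated with DNase. CASAVA 1.8.2, DESeq2 (no version) and the builds GRCm38 and mm10 are named in the submitters' processing notes, while for an aligner or miRNA annotation no name is given in these sources. The authors' normalized signal table equals their counts over 1 size factor for each library, set within a line. It served as an alternative scaling of the dose. The authors' deposited variance-stabilized log2 values were not used in tests.

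Samples were grouped by line and day label. Counts of the 1063 shared miRNAs were fitted together with edgeR 4.0.16 (R 4.3.3, limma 3.58.1): quasi-likelihood F tests on all 20 libraries, 1 coefficient per group, TMM scaling and filterByExpr, which kept 813 miRNAs. The fit had 10 residual degrees of freedom, which the 95% intervals use, and a common dispersion of 0.171. The SE is the change over the root of its F. Benjamini-Hochberg adjustment was made separately in each of 23 contrasts at 0.05. Arm shares were compared by exact permutation tests (scipy 1.17.1), and figures drawn with matplotlib 3.10.9. Alternatives were DESeq2 1.42.0, other scalings and filters, each line alone, the experiment as a block and leaving out each library. The procedure was tested on simulated data.

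The labels used here number the experiment of each library within its line. They do not state whether equal numbers in PGK and E14 cells are the same experiment. Deviations from group means correlated between lines at the same stage by 0.118 to 0.600 (5 stages, median 0.402), and between stages of a line by -0.120 to 0.412 (20 pairs of groups, median 0.0904). The block joins libraries of equal number across both lines, and so takes equal numbers as the same experiment.

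All 4 arms are named. In the lists, the up to 4 most abundant miRNAs could be named, and for likeness to the dose (log2 CPM with a pseudocount of 0.5) the 5 highest and 3 lowest outside the cluster with a mean of at least 50 CPM. mmu-miR-302b-5p was named after its values were seen. The members and lists were chosen with earlier results of these data known. With 7.11 M to 18.03 M counts per library, replicate spread and not counting limits precision.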

Additional observations from a re-analysis of the deposited data

Results flagged for a closer look

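The mean 3p share of miR-291b at day 10 was above day 0 in the female line and below it in the male line. In the female line mmu-miR-291b-3p held 71.4% ± 3.05 of both arms at day 10, against 64.5% ± 3.21 at day 0 (SD, n = 2 each), a difference of 6.90 percentage points. In the male line it held 67.0% ± 4.82 at day 10, against 70.2% ± 9.32 at day 0, a difference of -3.23 percentage points. The PGK libraries moved by 7.02 points in replicate 2 and 6.78 in replicate 3. The E14 libraries moved by -6.41 points in replicate 2 and -0.05 in replicate 3, so nearly all of the male difference comes from replicate 2, and the male day 10 and day 0 libraries overlapped. The difference between the lines was not tested.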

How the results depend on the processing

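Scaling and filters moved several calls against day 0. No change against day 0 reversed under any alternative, and mmu-miR-295-3p kept its calls at days 19 to 23 and late in all of them, except late in E14 cells with library totals. For calls that changed, the log2 change and adjusted p follow. With library totals only, mmu-miR-295-3p was called at PGK day 4 (-0.87, 0.0409), and calls were lost for mmu-miR-291b-3p at days 19 to 23 in PGK (-0.51, 0.374) and E14 cells (-0.37, 0.53), for mmu-miR-294-3p in PGK late (-1.70, 0.062), E14 days 19 to 23 (-1.21, 0.179) and E14 late (-0.90, 0.295), and for E14 late mmu-miR-291a-3p (-0.66, 0.147) and mmu-miR-295-3p (-0.77, 0.0642). The counts of called arms were then 1 at PGK day 4, 2 at E14 days 19 to 23 and 0 late in E14 cells, with 1 arm at an unadjusted p under 0.05. The log2 ratio of the summed dose was then -0.91 at PGK day 4, -1.08 at PGK day 10, -0.94 late in PGK, -0.99 at E14 days 19 to 23 and -0.77 late in E14 cells.

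At E14 day 4, mmu-miR-295-3p was called with RLE (-0.96, 0.0181), scaling without the miR-290 cluster (-0.89, 0.0315), no filter (-0.90, 0.036), at least 10 CPM on average (-0.84, 0.0232), each line alone (-1.02, 0.00837), DESeq2 (-0.94, 0.0242) and the experiment as a replicate block (-0.70, 0.0477), so the count was 1 in each. The dose there was -0.95 with RLE. At E14 day 10 it was called with at least 10 CPM (-0.80, 0.0347), each line alone (-0.85, 0.024) and the block (-0.78, 0.0379), with a count of 1. At PGK day 4, mmu-miR-294-3p was called without the miR-290 cluster (-1.65, 0.0356), with no filter (-1.61, 0.0372), at least 10 CPM (-1.67, 0.0318), the block (-1.47, 0.0164), each line alone (-1.74, 0.0259) and DESeq2 (-1.55, 0.0368). The count there was 2 without the cluster, with mmu-miR-295-3p (-0.81, 0.046) and a dose of -0.86, 4 with at least 10 CPM, with mmu-miR-291a-3p (-0.86, 0.0468), mmu-miR-291b-3p (-0.94, 0.038) and mmu-miR-295-3p (-0.90, 0.0149), and 1 in the others. Late in E14 cells mmu-miR-294-3p was lost with RLE (-1.49, 0.0605), without the cluster (-1.48, 0.0562), with no filter (-1.47, 0.0548), at least 10 CPM (-1.41, 0.0689) and each line alone (-1.53, 0.0588). mmu-miR-291b-3p was lost at days 19 to 23 in E14 cells with no filter (-1.01, 0.0752) and in PGK cells fitted alone (-1.10, 0.0512), and was called late in PGK cells by DESeq2 (-0.90, 0.0236). The block changed no other call of the 4 arms. The cause of these shifts was not tested.

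Leaving out 1 library at a time, with a group of 1 library taken to have the spread of the rest, the counts were 0 to 1, 1 to 3, 3 to 4 and 1 to 4 over the PGK stages, and 0 to 2, 0 to 1, 2 to 3 and 1 to 3 over the E14 stages. The dose ratio lay between -0.82 and -0.41, -1.53 and -1.12, -2.59 and -1.47, and -1.54 and -1.13 over the PGK stages, and between -0.88 and -0.49 at E14 day 4, -1.87 and -1.48 at days 19 to 23. Changes of mmu-miR-291a-3p lay between -1.38 and -1.14 at PGK day 10, -1.59 and -1.31 late in PGK and -1.54 and -1.17 late in E14 cells, and those of mmu-miR-291b-3p between -1.15 and -0.59 at PGK day 4, -1.48 and -0.70 at PGK days 19 to 23, -1.16 and -0.51 late in PGK and -1.40 and -0.89 at E14 days 19 to 23. mmu-miR-294-3p lay between -2.38 and -1.97 at PGK day 10, -2.43 and -1.94 late in PGK, and between -2.04 and -0.031, -2.45 and -1.06, and -2.13 and -0.70 at E14 day 4, days 19 to 23 and late. mmu-miR-295-3p lay between -1.20 and -0.78 at E14 day 4 and -1.06 and -0.65 at day 10. Uncalled differences that changed sign were PGK over E14 for mmu-miR-295-3p at days 19 to 23 (-0.84 to 0.048) and mmu-miR-294-3p at day 0 (-0.021 to 1.47), and for mmu-miR-294-3p the step from E14 day 4 to day 10 (-0.73 to 0.87) and the line difference at day 4 (-1.67 to 0.34). The 3p shares kept their side of the threshold in all alternatives, but after adjustment over the 4 hairpins a hairpin alone could not have crossed it.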
